A study of Mus musculus with 12 samples.

Results

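The loop of Henle is the hairpin of the nephron between the proximal and the distal tubule, and the genes described here are a set of 9 transcripts used to follow it: Umod, Slc12a1, Kcnj1, Cldn10, Cldn16, Cldn19, Egf, Bsnd and Ptger3. They were chosen by name, as the entries of the deposited table whose gene symbol equals one of these names, and all 9 were found among 36186 genes, each with 1 entry. The RNA sequenced came from whole kidneys taken from mouse embryos at E18.5, in 12 libraries of 4 genotypes with 3 embryos each, all on a mixed background. Wild type embryos were 30, 37 and 55. Embryos 20, 31 and 33 were homozygous for mutations of Hoxa9, Hoxa10 and Hoxa11 and heterozygous for mutations of Hoxc9, Hoxc10 and Hoxc11, and are called Hoxa-null Hoxc-het. Embryos AC38, AC110 and AC115, shown without the letters in the figures, were the converse, heterozygous at the Hoxa genes and homozygous at the Hoxc genes, and are called Hoxa-het Hoxc-null. Embryos 24, 27 and 29 were labelled homozygous at all 6 genes and are called double homozygous. The alleles are frameshifts within the first exons, made by recombineering, so mutant transcripts can still be counted. The study's results text instead gives the sequenced double mutants as Hoxa11+/- or Hoxa11+/+, and the labels do not say which library would carry which allele. That text also reports that kidneys could not be found at E18.5 in embryos homozygous for all 6 mutations. The Hoxa-het Hoxc-null libraries came from 1 sequencing run and the other 9 libraries from another run, so run and genotype cannot be told apart for that group.

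In the thick ascending limb, a cotransporter encoded by Slc12a1 takes sodium, potassium and chloride from the tubule fluid, a potassium channel encoded by Kcnj1 returns potassium to the fluid, and chloride leaves through channels that need the subunit encoded by Bsnd. The voltage made by this cycle drives calcium and magnesium between the cells through tight junctions holding Cldn16 and Cldn19, while Cldn10 forms junctions that pass sodium. Because the limb takes up salt without water, it makes the concentrated medulla on which urine concentration depends. Several of these genes are also used outside the loop, among them Cldn10 in the proximal tubule, Kcnj1 and Bsnd in the distal nephron and collecting duct, and Egf in the distal convoluted tubule. In RNA from a whole kidney, fewer cells of a type and less RNA per cell cannot be told apart.

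The members lie on 7 chromosomes of the mm10 build. In the annotation of this build they are Umod (Entrez 22242) at chr7:119462708-119479262, Slc12a1 (Entrez 20495) at chr2:125152510-125230002, Kcnj1 (Entrez 56379) at chr9:32372418-32399197 and Cldn10 (Entrez 58187) at chr14:118787871-118874525. The others are Cldn16 (Entrez 114141) at chr16:26463135-26482765, Cldn19 (Entrez 242653) at chr4:119255441-119262438, Bsnd (Entrez 140475) at chr4:106483456-106492243, Egf (Entrez 13645) at chr3:129677574-129755322 and Ptger3 (Entrez 19218) at chr3:157566821-157644758. All are protein-coding genes. Of the annotated genes that overlap them, 6330410L21Rik, a noncoding RNA within Egf, was counted as well, and its reads came to 2.88% of those of Egf. Whether the counting used strand is not stated, and the isoforms of Cldn10 and of Ptger3 are counted together.

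Promoter windows of 300 bases, from 250 bases before to 50 bases after an annotated start, were found for 8 of the 9 members in the RefSeq table for GRCm38, the assembly behind mm10. Bsnd was without an entry. Shown 5′ to 3′ on the strand of the gene are the windows of Cldn16 (chr16:26462885-26463184, plus strand) and Cldn19 (chr4:119255191-119255490, plus strand), the members that passed the test below, and that of Slc12a1 (chr2:125152350-125152649, plus strand), among the most abundant members per length. Capitals mark matches to TTTAT, the core bound by Hox proteins of the Abdominal-B class, searched on both strands, so that ATAAA is TTTAT on the opposite strand. 
Cldn16: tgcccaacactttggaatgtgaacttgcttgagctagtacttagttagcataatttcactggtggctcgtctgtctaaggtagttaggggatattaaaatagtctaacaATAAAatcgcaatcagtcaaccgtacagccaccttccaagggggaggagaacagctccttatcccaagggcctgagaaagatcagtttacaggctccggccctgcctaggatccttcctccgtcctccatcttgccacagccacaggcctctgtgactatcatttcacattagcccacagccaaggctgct
Cldn19: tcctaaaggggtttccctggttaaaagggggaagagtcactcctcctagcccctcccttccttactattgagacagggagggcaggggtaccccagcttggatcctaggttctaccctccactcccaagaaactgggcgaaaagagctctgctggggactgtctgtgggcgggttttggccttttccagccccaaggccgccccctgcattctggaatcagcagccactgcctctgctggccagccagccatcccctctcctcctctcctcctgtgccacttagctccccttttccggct
Slc12a1: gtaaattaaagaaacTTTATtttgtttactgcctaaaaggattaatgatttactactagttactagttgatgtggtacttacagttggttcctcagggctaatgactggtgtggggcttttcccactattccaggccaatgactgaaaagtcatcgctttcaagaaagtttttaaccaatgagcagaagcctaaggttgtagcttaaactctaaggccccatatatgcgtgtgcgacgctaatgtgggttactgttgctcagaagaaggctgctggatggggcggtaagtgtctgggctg
TTTAT was present in 3 of the 11 windows of the 8 members with a window, at -235 to -231 in Slc12a1, -141 to -137 in Cldn16 and -222 to -218 in Cldn10, and in 40.0% of all 32851 windows of the table. The window of Cldn19 shown held none. These are descriptions of letters within short windows, and binding was not measured.

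Total counts on genes were 37190035, 42353502 and 39304120 in wild type embryos 30, 37 and 55, and 28616877, 41184985 and 38337107 in Hoxa-null Hoxc-het embryos 20, 31 and 33. They were 33106649, 47067903 and 46399578 in Hoxa-het Hoxc-null embryos AC38, AC110 and AC115, and 39352856, 40151311 and 36951243 in double homozygous embryos 24, 27 and 29. Values in each genotype are given in this order of embryos from here on, as CPM, each gene's reads over the library total, times 10 to the power 6, with totals scaled by TMM factors over the 12 libraries. At this depth every member was counted in every library, from 41 reads of Egf in Hoxa-null Hoxc-het embryo 20 to 44333 reads of Slc12a1 in double homozygous embryo 27. All 9 members passed the filter on low counts in each of the 4 comparisons made.

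A pair of libraries stood apart. Hoxa-null Hoxc-het embryo 20 had the fewest reads, and its median Spearman correlation with the other libraries over 15828 genes was 0.947, where the medians of the other 11 lay between 0.981 and 0.989. It was the lowest of all 12 libraries for 6 of the 9 members. Double homozygous embryo 27, whose median correlation of 0.981 was the next lowest, was the highest of all 12 for 8 of the 9 members. Results of the members that rest on either embryo are given with and without it. Xist was at 190, 253, 336, 72.6 and 60.1 CPM in Hoxa-null Hoxc-het embryos 31 and 33, Hoxa-het Hoxc-null embryo AC110 and double homozygous embryos 27 and 29, and Y-linked transcripts were at 19.9 CPM or more in the other 7 libraries. All 3 wild type embryos were among those 7, so sex was not balanced between the groups. Embryo 20 was the only embryo of its group with Y-linked transcripts, so fits with Xist as a covariate lean on it. Those fits used all 12 libraries and were not run without embryo 20.

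The targeted genes were still transcribed in every library. Hoxa10 was at 125, 152 and 165 CPM in wild type and 100.3, 103.7 and 112 CPM in double homozygous kidneys, a log2 fold change of -0.49 (SE 0.11, edgeR adjusted p = 0.0270). Hoxc10 was at 50.2, 58.8 and 66.9 CPM in wild type and 37.8, 29.1 and 35.8 CPM in double homozygous kidneys, a log2 fold change of -0.78 (SE 0.14, edgeR adjusted p = 0.0127). Both fell, and both were lower in 3 of 3 mutant embryos than in any wild type embryo, as were Hoxc9 and Hoxc11. Over all genes tested, 13.7% were past the threshold and 38.1% had groups without overlap, in either direction. Hoxa9, Hoxa11, Hoxc9 and Hoxc11 did not pass the threshold, with log2 fold changes of 0.02, -0.29, -0.27 and -0.65. Because a frameshift does not remove the transcript, these levels do not check the genotype labels.

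Per kilobase of exon, the members covered a wide range in wild type kidneys. Umod stood at 94.96 ± 10.8 CPM per kilobase (SD, n = 3) and Slc12a1 at 94.3 ± 21.3, with overlapping embryos, and these were 434th and 437th among 18155 genes ranked. Kcnj1 (30.7 ± 4.70) and Cldn10 (29.5 ± 3.33) came next and also overlapped. Below them the ranges of neighbours were separate, with Bsnd at 18.9 ± 1.42, Cldn19 at 15.1 ± 0.825 and Cldn16 at 11.5 ± 0.744 CPM per kilobase. Ptger3 followed at 2.92 ± 0.618 and Egf last at 0.468 ± 0.0103 CPM per kilobase, the latter 13106th in rank. The 3 mutant genotypes kept Ptger3 and Egf in the last places, and had Slc12a1 ahead of Umod, with overlapping embryos in each. In double homozygous kidneys each of Cldn10, Bsnd and Cldn19 overlapped the member after it, down to Cldn16, at means of 32.96, 23.4, 19.6 and 18.6 CPM per kilobase. Cldn19 stood ahead of Bsnd in Hoxa-het Hoxc-null kidneys, at 16.9 against 16.0 CPM per kilobase, with overlapping ranges.

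**Figure D1:**
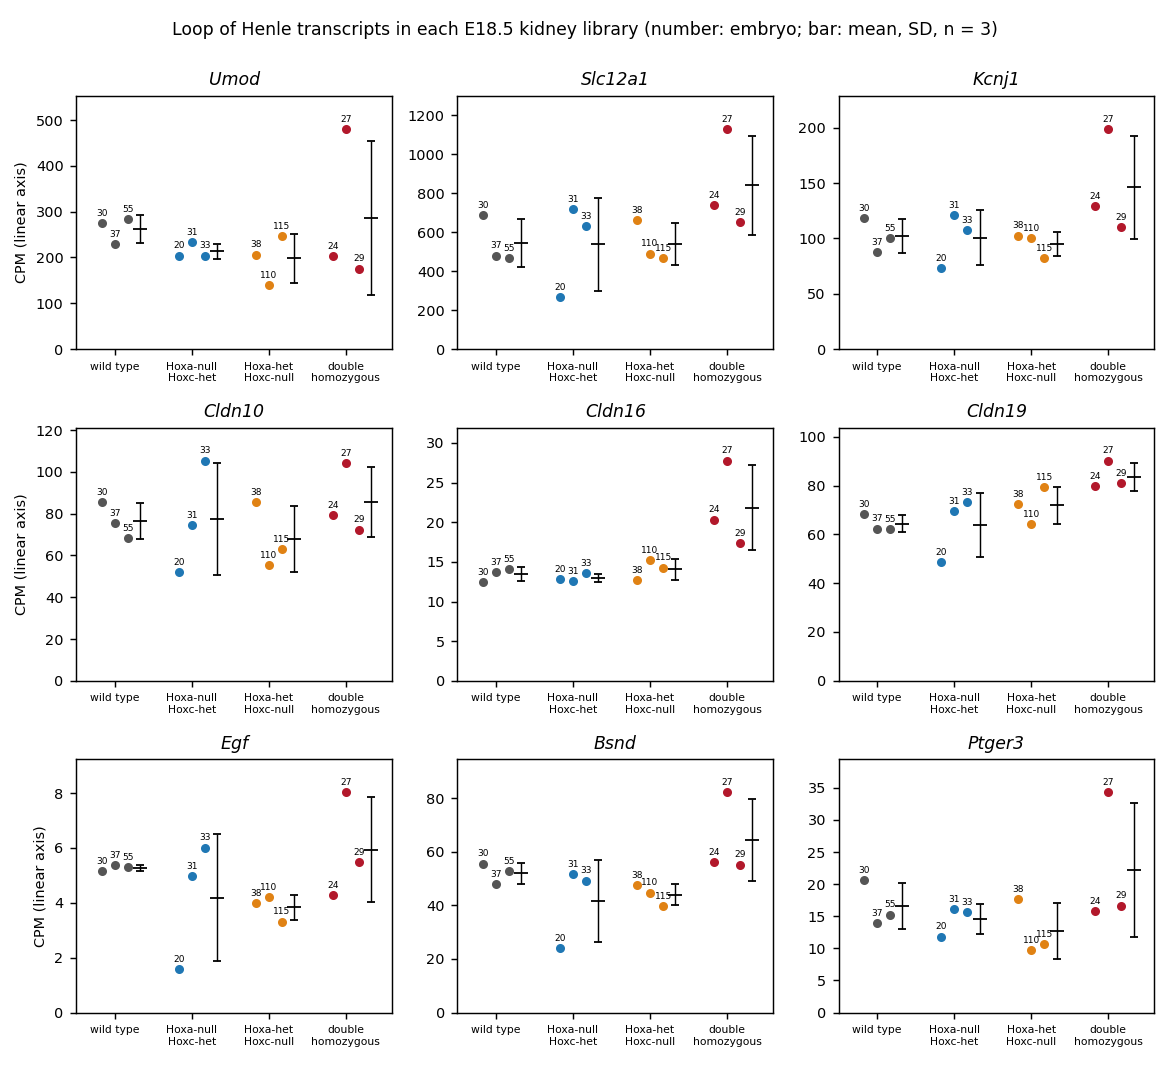
Level of each of the 9 loop of Henle transcripts in each library, in CPM on a linear axis from 0, with the embryo number at each point and bars for the mean and SD of 3 embryos. Double homozygous embryo 27 is the highest point in 8 of the 9 panels, and the double homozygous points of Cldn16 and Cldn19 lie above all wild type points.

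The comparison of double homozygous with wild type kidneys asks how transcripts of the loop differ in the most heavily mutated genotype, labelled as mutant at all 6 genes though the study's text gives at least 1 wild type Hoxa11 allele. Cldn16 and Cldn19, partners in the junctions that pass magnesium and calcium, rose, by 1.62-fold and 1.30-fold. The other 7 members did not pass the threshold, and their estimates lay above 0 as well, from 0.13 to 0.62 on the log2 scale, 4 of them turning below 0 without embryo 27. By edgeR's quasi-likelihood test at an adjusted p of 0.05, 2 of 9 members were past the threshold, both higher, where 13.7% of 15839 genes tested were past it in either direction and 6.31% were higher. With 9 genes, nothing particular to the loop is read from that count. Both calls held without double homozygous embryo 29, with 1644 genes past the threshold, and that of Cldn19 held without wild type embryo 30, with 3386 genes. Neither held without wild type embryo 37 (535 genes), wild type embryo 55 (633 genes), double homozygous embryo 24 (793 genes) or double homozygous embryo 27 (1101 genes).

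Among the genes of the salt transport cycle, Slc12a1 was at 685, 480 and 466 CPM in wild type and 737, 1129.6 and 651 CPM in double homozygous kidneys. It was at 268, 718 and 630.2 CPM in Hoxa-null Hoxc-het and 661, 490.1 and 467 CPM in Hoxa-het Hoxc-null kidneys. Embryo 27 was the highest and embryo 20 the lowest of the 12, 4.22-fold apart, and wild type embryo 30 lay above the double homozygous embryo 29, so these groups overlapped. The log2 fold change of Slc12a1 in double homozygous against wild type kidneys was 0.62 (SE 0.23, 95% interval 0.09 to 1.16, edgeR adjusted p = 0.109), and without embryo 27 it was 0.35 (edgeR adjusted p = 0.261). With Xist as a covariate it was 0.35 too. By DESeq2 it was past the threshold, with an adjusted p of 0.0209, and over the alternatives tried its adjusted p lay between 0.0209 and 0.638. Without wild type embryo 30 it was past the threshold as well, at 0.83 (edgeR adjusted p = 0.0407).

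Kcnj1, the potassium channel that keeps the cotransporter supplied, was at 119, 87.5 and 100.6 CPM in wild type and 129.5, 199 and 110.2 CPM in double homozygous kidneys. In Hoxa-null Hoxc-het kidneys it was at 73.2, 121 and 108 CPM, and in Hoxa-het Hoxc-null kidneys at 103, 100.1 and 82.5 CPM. Embryo 27 was again the highest and embryo 20 the lowest, and the other 10 embryos lay between 82.5 and 129.5 CPM. Double homozygous kidneys overlapped wild type and Hoxa-null Hoxc-het kidneys and lay above all 3 Hoxa-het Hoxc-null kidneys. Its log2 fold change in double homozygous kidneys was 0.52 (SE 0.22, 95% interval 0.01 to 1.02, edgeR adjusted p = 0.145), and 0.23 without embryo 27 and 0.32 with Xist as a covariate.

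Bsnd, the subunit of the basolateral chloride channels, was at 55.6, 47.8 and 52.7 CPM in wild type and 56.2, 82.2 and 55.2 CPM in double homozygous kidneys. It was at 24.03, 51.6 and 49.2 CPM in Hoxa-null Hoxc-het and 47.4, 44.7 and 39.7 CPM in Hoxa-het Hoxc-null kidneys. Double homozygous embryos 24 and 29 were within 1 CPM of the highest wild type embryo, embryo 27 stood above them, and the Hoxa-het Hoxc-null embryos all lay below wild type. The log2 fold change in double homozygous kidneys was 0.31 (SE 0.16, 95% interval -0.05 to 0.67, edgeR adjusted p = 0.213). It was 0.10 without embryo 27, and 0.04 with Xist as a covariate (edgeR adjusted p = 0.956).

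Of the junction proteins, Cldn16 was at 12.5, 13.7 and 14.1 CPM in wild type and 20.3, 27.8 and 17.4 CPM in double homozygous kidneys. It was at 12.8, 12.6 and 13.6 CPM in Hoxa-null Hoxc-het and 12.7, 15.3 and 14.3 CPM in Hoxa-het Hoxc-null kidneys. The 9 libraries outside the double homozygous group were close together, embryo 20 included, and the 3 double homozygous embryos all stood above them. Cldn16 rose by 0.70 on the log2 scale (SE 0.17, 95% interval 0.30 to 1.10, edgeR adjusted p = 0.0380), in 3 of 3 mutant embryos. Without embryo 27 the change was 0.49 (edgeR adjusted p = 0.0585), and over all alternatives and left-out libraries it lay between 0.49 and 0.84.

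Cldn19 was at 68.4, 62.4 and 62.3 CPM in wild type and 79.8, 90.2 and 80.9 CPM in double homozygous kidneys. In Hoxa-null Hoxc-het kidneys it was at 48.7, 69.6 and 73.2 CPM, and in Hoxa-het Hoxc-null kidneys at 72.5, 64.1 and 79.3 CPM. The double homozygous embryos lay above all other 9, though Hoxa-het Hoxc-null embryo AC115 came within 1 CPM of embryo 24. Cldn19 rose by 0.38 on the log2 scale (SE 0.079, 95% interval 0.19 to 0.56, edgeR adjusted p = 0.0233), in 3 of 3 mutant embryos, and the change was 0.32 without embryo 27 (edgeR adjusted p = 0.0528). Over all alternatives and left-out libraries it lay between 0.30 and 0.43. With Xist as a covariate in a fit of all 12 libraries, the log2 fold changes were 0.63 for Cldn16 (edgeR adjusted p = 0.0672) and 0.30 for Cldn19 (edgeR adjusted p = 0.307). Over the 8 alternatives in tool, scaling, filter or libraries, the adjusted p lay between 0.00204 and 0.0761 for Cldn16, past the threshold in 5, and between 0.000883 and 0.307 for Cldn19, past it in 4.

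Cldn10, of the junctions that pass sodium, was at 85.4, 75.4 and 68.2 CPM in wild type and 79.5, 104 and 72.4 CPM in double homozygous kidneys. It was at 52.1, 74.5 and 105 CPM in Hoxa-null Hoxc-het and 85.7, 55.4 and 62.9 CPM in Hoxa-het Hoxc-null kidneys. This was the member whose highest value was outside the double homozygous group, in Hoxa-null Hoxc-het embryo 33, and all genotypes overlapped. Its log2 fold change in double homozygous kidneys was 0.16 (SE 0.15, edgeR adjusted p = 0.468), and -0.01 without embryo 27 and 0.06 with Xist as a covariate.

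Of the secreted products, Umod, the most abundant protein of normal urine, was at 275, 228 and 284 CPM in wild type and 204, 481 and 175 CPM in double homozygous kidneys. It was at 204, 233 and 204 CPM in Hoxa-null Hoxc-het and 206, 140.03 and 247 CPM in Hoxa-het Hoxc-null kidneys. Double homozygous embryos 24 and 29 lay below every wild type embryo, and embryo 27 lay above every other library. The mean over the double homozygous embryos was therefore 287 ± 169 CPM (SD, n = 3), against 262 ± 29.8 in wild type. The log2 fold change was 0.13 (SE 0.35, 95% interval -0.68 to 0.93, edgeR adjusted p = 0.829), and turned to -0.47 without embryo 27 (edgeR adjusted p = 0.0680).

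Egf, a growth factor precursor of the thick limb and distal convoluted tubule, was at 5.15, 5.37 and 5.30 CPM in wild type and 4.28, 8.03 and 5.50 CPM in double homozygous kidneys. It was at 1.58, 4.97 and 6.02 CPM in Hoxa-null Hoxc-het and 3.99, 4.20 and 3.32 CPM in Hoxa-het Hoxc-null kidneys. The wild type embryos were nearly equal, the double homozygous embryos lay on both sides of them, and embryo 20 was far below the rest. Its log2 fold change in double homozygous kidneys was 0.17 (SE 0.23, edgeR adjusted p = 0.637), and it turned to -0.11 without embryo 27 and to -0.36 with Xist as a covariate.

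Ptger3, a prostaglandin E2 receptor that restrains salt uptake in the thick limb, was at 20.6, 14.0 and 15.2 CPM in wild type and 15.8, 34.3 and 16.7 CPM in double homozygous kidneys. It was at 11.8, 16.1 and 15.6 CPM in Hoxa-null Hoxc-het and 17.7, 9.68 and 10.6 CPM in Hoxa-het Hoxc-null kidneys. Embryo 27 stood alone, and the other 2 double homozygous embryos lay within the wild type range. The log2 fold change in double homozygous kidneys was 0.42 (SE 0.31, edgeR adjusted p = 0.370), and -0.03 without embryo 27.

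Over the 9 members, the median log2 fold change in double homozygous against wild type kidneys was 0.38, or 0.10 without embryo 27, and over all genes tested it was -0.01 in both fits. Estimates were above 0 for 9 of 9 members and for 49.0% of all genes. Without embryo 27 they were above 0 for 5 of 9, with Umod, Egf, Ptger3 and Cldn10 below, so the shared direction rested on that library. Umod turned as well, to -0.01, in limma on the deposited log2 values, and Egf with Xist as a covariate. The libraries of the groups did not overlap for 2 of 9 members, both higher, and for 38.1% of all genes in either direction. Without embryo 27 no member was past the threshold by edgeR, 3 members and 4209 genes had an unadjusted p below 0.05, and 1101 of 16000 genes were past the threshold in place of 2171 of 15839. With all libraries, 4 members and 5131 of 15839 genes had an unadjusted p below 0.05. DESeq2 called 3 members (Slc12a1, Cldn16 and Cldn19) and 3380 genes. Limma on the deposited log2 values called 0 members and 1215 genes, with 2 members and 4794 genes below an unadjusted p of 0.05.

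**Figure D2:**
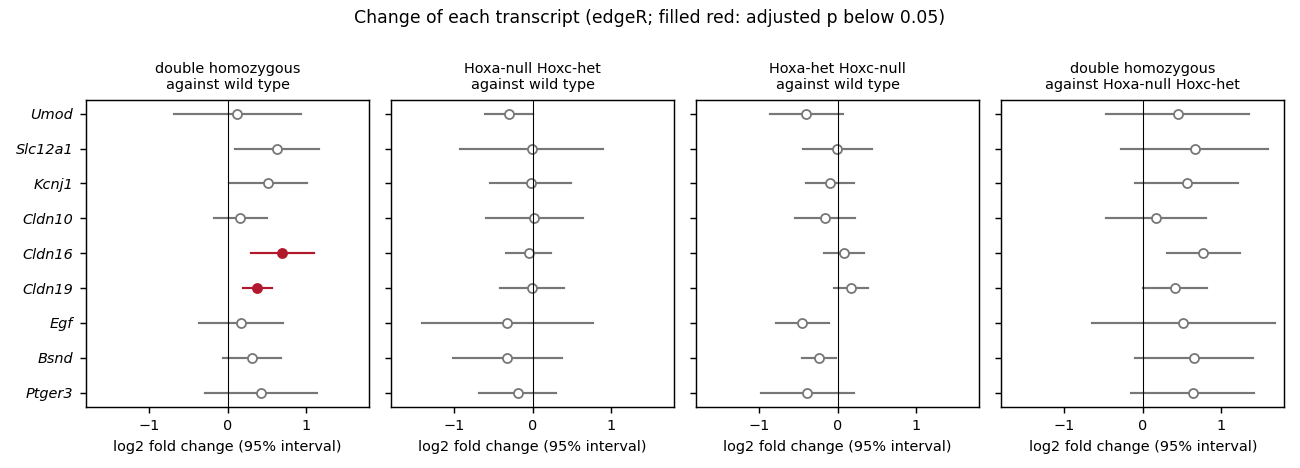
Log2 fold change of each of the 9 transcripts in the 4 comparisons, from edgeR, with 95% intervals and with filled red points for an adjusted p below 0.05. Cldn16 and Cldn19 in double homozygous against wild type kidneys are the filled points, at 0.70 and 0.38.

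In Hoxa-null Hoxc-het against wild type kidneys, which asks what is seen when 1 functional set of the Hoxc genes remains, no member moved past the threshold and none had groups without overlap. Estimates were below 0 for 8 of 9 members, with Cldn10 at 0.02, or -0.05 when scaled by library size alone, and were largest in size for Egf (-0.32, SE 0.45), Bsnd (-0.32, SE 0.29) and Umod (-0.30, SE 0.13). With Xist as a covariate, Egf went to -1.02, Bsnd to -0.68, Slc12a1 from -0.01 to -0.38, Kcnj1 from -0.02 to -0.26 and Ptger3 from -0.19 to -0.29, and all 9 were below 0. In this group the covariate sets embryo 20 apart from the rest, so these shifts cannot be told apart from that embryo. The median over the members was -0.05, beside 0.03 over all genes, and lay between -0.27 and 0.05 with 1 library left out. edgeR called 0 of 9 members and 0% of 15789 genes, with 0 members and 360 genes below an unadjusted p of 0.05. That count was 1813 genes without embryo 20, 174 without wild type embryo 37, 172 without wild type embryo 55, and 1968 genes and 2 members with Xist as a covariate. DESeq2 called 22 genes and limma 1 gene, none of them a member. Groups without overlap were found for 0 members and 8.35% of all genes.

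Much of this lay with embryo 20. Without it, Slc12a1 turned from -0.01 to 0.31, Kcnj1 from -0.02 to 0.16, Cldn19 from -0.01 to 0.14 and Egf from -0.32 to 0.05 on the log2 scale, while Bsnd went from -0.32 to -0.05. Umod was at -0.27 without embryo 20 (edgeR adjusted p = 0.431), close to its value with it, and Cldn16 was at -0.05 both with and without it. No member was past the threshold without embryo 20, and 8 of 15967 genes were.

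In Hoxa-het Hoxc-null against wild type kidneys, Egf and Bsnd were lower in all 3 mutant embryos than in any wild type embryo, and neither passed the adjusted test. Egf was at a log2 fold change of -0.45 (SE 0.15, 95% interval -0.79 to -0.11, edgeR adjusted p = 0.145), and Bsnd at -0.23 (SE 0.092, 95% interval -0.45 to -0.02, edgeR adjusted p = 0.208). With Xist as a covariate they were at -0.73 and -0.39. Umod (-0.40, SE 0.20) and Ptger3 (-0.38, SE 0.25) also had estimates below 0, with overlap, between -0.59 and -0.21 and between -0.71 and -0.21 with 1 library left out. Cldn16 (0.08, SE 0.11) and Cldn19 (0.17, SE 0.093) were the members with estimates above 0, at 0.01 to 0.13 and 0.09 to 0.24 with 1 library left out. edgeR called 0 of 9 members and 2.36% of 15902 genes, or 376. That count of genes was 60 without wild type embryo 37, 70 without wild type embryo 55, 63 without embryo AC110 and 99 without embryo AC115. At an unadjusted p of 0.05 there were 2 members, Egf and Bsnd, and 3349 of 15902 genes. DESeq2 and limma called 0 members, with 1318 and 158 genes. Groups did not overlap for 2 of 9 members and for 26.7% of all genes, and the median log2 fold change was -0.16 over the members and 0.01 over all genes. The former was -0.08 without wild type embryo 30 and -0.30 without embryo AC38. As these libraries share no run with wild type, run and genotype cannot be told apart here.

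Double homozygous against Hoxa-null Hoxc-het kidneys, which by label differ in the Hoxc alleles alone and by the study's text in Hoxa11 as well, had estimates above 0 for 9 of 9 members, for 8 without embryo 20 and for 7 without embryo 27. Cldn16, Cldn19 and Bsnd were higher in all 3 double homozygous embryos than in any Hoxa-null Hoxc-het embryo, and 23.0% of all genes had groups without overlap in either direction. The log2 fold change was 0.77 for Cldn16 (SE 0.19, edgeR adjusted p = 0.259), 0.41 for Cldn19 (SE 0.17, edgeR adjusted p = 0.432) and 0.65 for Bsnd (SE 0.31, edgeR adjusted p = 0.496). edgeR called 0 of 9 members and 0% of 15764 genes. At an unadjusted p of 0.05 there were 2 members, Cldn16 and Cldn19, and 1787 genes. DESeq2 called 554 genes, Cldn16 among them with an adjusted p of 0.0279, and limma called 1 gene and no member.

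The median over the members in this comparison was 0.56, beside -0.01 over all genes, and it was 0.27 without embryo 27 and 0.38 without embryo 20. Without embryo 20, edgeR called 687 of 15986 genes and again 0 members. Slc12a1 then went from 0.66 to 0.34, Bsnd from 0.65 to 0.38, Cldn19 from 0.41 to 0.25 and Cldn10 from 0.16 to -0.05, while Cldn16 stayed at 0.76 (edgeR adjusted p = 0.0839). Without embryo 27, Cldn16 was at 0.56, Cldn19 at 0.35 and Umod at -0.16. This comparison and the first share the double homozygous libraries, so their values are set side by side and are not independent.

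**Figure D3:**
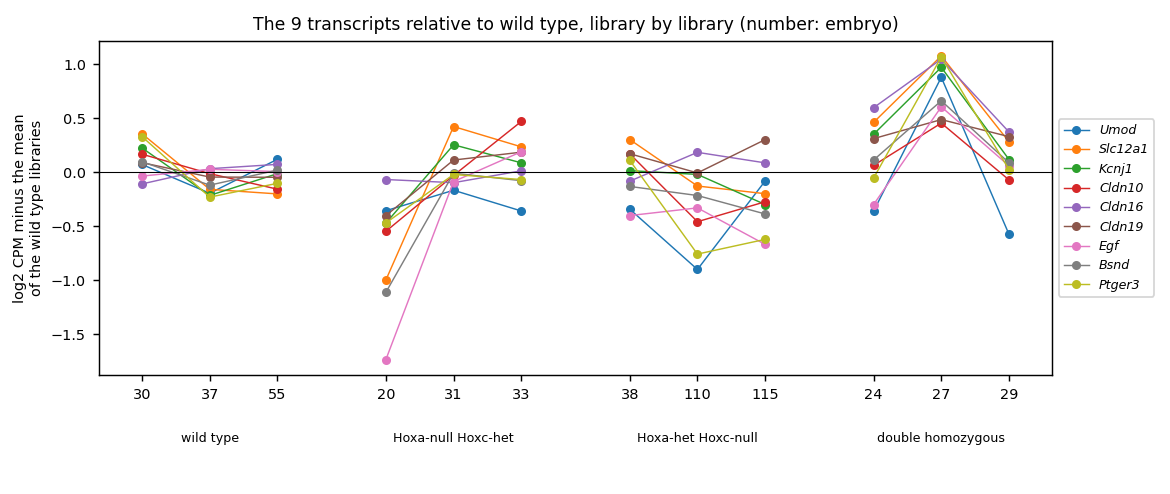
Log2 CPM of each of the 9 transcripts minus its mean over the wild type libraries, library by library, with lines joining the points of 1 transcript within a genotype. Embryo 27 has all transcripts above 0 and embryo 20 has all below 0, while Umod lies below 0 in double homozygous embryos 24 and 29.

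Over the 12 libraries, all 36 pairs of members had a Pearson r of log2 CPM above 0, with a median of 0.711 and a range of 0.348 to 0.936. Spearman rho was below 0 for 4 of these pairs, at -0.18 for Umod and Cldn16, -0.091 for Cldn16 and Ptger3, -0.070 for Cldn10 and Cldn16 and -0.042 for Umod and Cldn19. Umod had the lowest median r with the others, 0.494, and Slc12a1 the highest, 0.812. Without embryo 20 the median over pairs was 0.650. When embryo 27 was left out as well it was 0.279, with 28 of 36 pairs above 0 and a range of -0.44 to 0.87. These embryos lie farthest from the median of the members' level, and leaving out such extremes tends to lower r by itself. Nothing further is read from the fall. The highest r among the other 10 libraries was that of Slc12a1 and Kcnj1, at 0.872, and over all 12 it was that of Egf and Bsnd, at 0.936. Libraries share depth, run and genotype in these values, and they are a description.

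Ratios within a library compare members in the same RNA. The ratio of Cldn16 to Slc12a1 CPM was 0.0257 ± 0.00658 (SD, n = 3) in wild type and 0.0263 ± 0.00154 in double homozygous kidneys, less apart than the spread between embryos, and ran from 0.0175 to 0.0479 over the 12 libraries. Kcnj1 to Slc12a1 was 0.190 ± 0.0225 in wild type and 0.174 ± 0.00386 in double homozygous kidneys, also with overlap. Cldn10 to Slc12a1 was 0.125, 0.157 and 0.146 in wild type and 0.108, 0.0923 and 0.111 in double homozygous kidneys, without overlap. Umod to Slc12a1 was 0.401, 0.476 and 0.610 in wild type and 0.276, 0.426 and 0.270 in double homozygous kidneys, where embryo 27 overlapped wild type and the other 2 embryos lay below it. In Hoxa-null Hoxc-het embryo 20, the ratio of Umod to Slc12a1 was 0.762, the highest of the 12, and in embryos 31 and 33 it was 0.324 and 0.323.

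The 8 genes outside the members whose log2 CPM was most like the members' mean standardized level were Gpr56, Atp1b1, Atp6ap1, Slc35f5, Napsa, Efhd1, Tnfsf10 and Ctsd, with Pearson r of 0.967 to 0.941 and Spearman rho of 0.860 to 0.965 over 12 libraries, among 16251 genes. Atp1b1, the beta subunit of the sodium pump, was at 1489, 1253 and 1271 CPM in wild type and 1582, 1977 and 1336 CPM in double homozygous kidneys, with 962 CPM in embryo 20. Its r was 0.958, and 0.901 without embryos 27 and 20, the libraries farthest from the median of the members' level. Slc35f5, a solute carrier, had the highest r without them, 0.928, and Tnfsf10 the lowest, 0.792. Over 9 genes of salt transport listed beside the members the median r was 0.862, but over the other loop lists it was lower, at 0.593 for kinases, 0.589 for secreted and other transcripts, 0.506 for the paracellular path, 0.308 for the thin limb and 0.129 for transcription regulators. It was 0.782 over 5 podocyte genes, which ran from -0.890 for Wt1 to 0.906. The median was 0.730 over 8 proximal tubule genes, -0.82 over 5 cap mesenchyme genes and -0.015 over all genes outside the members. A high r was thus not particular to the loop.

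Of 41 further loop of Henle genes, the thin limb list not included, all were tested in double homozygous against wild type kidneys. Of these, 2 rose, 2 fell and 37 did not pass the threshold, where 13.7% of all genes tested were past it, a larger share. Their median log2 fold change was 0.26, or 0.08 without embryo 27 and 0.13 with Xist as a covariate, beside -0.01 over all genes tested. Cldn14 and Cldn11, both of the 5 genes listed for the paracellular path and calcium sensing, were those that rose. Cldn14, a claudin that reduces calcium passage through junctions of the thick limb, was at 0.239, 0.392 and 0.297 CPM in wild type and 2.06, 4.79 and 0.769 CPM in double homozygous kidneys. Its 3 mutant embryos were all above wild type and differed widely among themselves, and Hoxa-null Hoxc-het embryo 20, at 1.00 CPM, lay above double homozygous embryo 29. Cldn14 rose by 3.02 on the log2 scale (SE 0.66, edgeR adjusted p = 0.0264), and the change was 2.18 without embryo 27 (edgeR adjusted p = 0.0528). At 0.392 CPM at most in wild type, Cldn14 rested on few reads there, which limits the precision of the size of this change. With 1 library left out it was past the threshold in 2 of 6 fits, at 2.18 to 3.45. Over the 8 alternatives it was past it in 7, with adjusted p up to 0.0621.

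Cldn11, another tight junction claudin, was at 39.5, 57.7 and 48.6 CPM in wild type and 85.7, 113 and 130.6 CPM in double homozygous kidneys. Here embryo 29 and not embryo 27 was highest, and no mutant embryo overlapped wild type. Cldn11 rose by 1.17 (SE 0.18, edgeR adjusted p = 0.00868), and it remained past the threshold in all 6 fits with 1 library left out, at 1.03 to 1.32. Its r with the members' level was 0.506, and embryo 20, at 60.0 CPM, lay above every wild type embryo. The cells that made Cldn11 were not measured. Pth1r, the parathyroid hormone receptor and the most abundant gene of that list, was at 311, 202 and 176 CPM in wild type and 371, 373 and 331 CPM in double homozygous kidneys. Its log2 fold change was 0.64 (SE 0.20, edgeR adjusted p = 0.0669), and the cells that made it were not measured. Casr, the calcium-sensing receptor, chosen here after its values were seen, was at 0.87 (SE 0.32, edgeR adjusted p = 0.106), with overlap.

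Among the 9 further salt transport genes, 0 were past the threshold by edgeR and 4 had an unadjusted p below 0.05, beside 5131 of 15839 genes, and 9 of 9 estimates were above 0 with a median of 0.35. Without embryo 27 the 9 estimates were again above 0, with a median of 0.12, and with Xist as a covariate 8 were, with 0.17. The kinases that act on the cotransporter gave 0 of 5 past the threshold and 0 with an unadjusted p below 0.05, with the most abundant, Wnk1, at 0.07 (SE 0.17), or -0.11 without embryo 27. Of 10 secreted, membrane and metabolic transcripts of the thick limb, 0 were past the threshold by edgeR, and 0 were below an unadjusted p of 0.05. Their median was 0.22, or -0.04 without embryo 27, and Sostdc1, the most abundant, was at 0.999-fold. In Hoxa-het Hoxc-null kidneys, Sostdc1 was at 195, 151 and 161 CPM, against 263, 253 and 243 CPM in wild type. It was the 1 further loop gene of 41 past the threshold there, beside 2.36% of all genes, and fell by 0.57 on the log2 scale (SE 0.10, edgeR adjusted p = 0.0421), with run and genotype not to be told apart. It was past the threshold in 1 of 6 fits with 1 library left out, and between -0.69 and -0.50 in all 6. In the other 2 comparisons edgeR called 0 of the 41 genes.

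Among 12 transcription regulators of the intermediate and distal nephron, 2 fell and the others did not pass the threshold. Over all genes tested, 13.7% were past it in either direction, so nothing particular to this list is read from that count. Tfap2a, an AP-2 factor of the distal nephron, was at 9.55, 12.4 and 13.6 CPM in wild type and 5.43, 6.12 and 6.62 CPM in double homozygous kidneys. All 3 mutant embryos were below wild type, and embryo 20, at 19.97 CPM, was the highest of the 12. Tfap2a fell by 0.97 on the log2 scale (SE 0.17, edgeR adjusted p = 0.0119), and it was past the threshold in 4 of 6 fits with 1 library left out. Over the 8 alternatives it was past it in 5, at -1.03 to -0.73, with adjusted p up to 0.243. Mecom was at 186, 167 and 173 CPM in wild type and 152, 145 and 141 CPM in double homozygous kidneys. It fell by 0.26 (SE 0.072, edgeR adjusted p = 0.04996), at the edge of the threshold and past it in 0 of 6 fits with 1 library left out.

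The macula densa sits at the end of the thick limb, senses salt delivery and expresses its own genes. Ptgs2, the inducible prostaglandin synthase of these cells, was at 10.6, 8.93 and 6.73 CPM in wild type and 31.04, 43.7 and 25.6 CPM in double homozygous kidneys. Hoxa-null Hoxc-het kidneys had 13.7, 11.6 and 12.8 CPM and Hoxa-het Hoxc-null kidneys 12.9, 5.30 and 12.03 CPM, so the double homozygous embryos stood above all other 9. Ptgs2 rose by 1.94 on the log2 scale (SE 0.23, edgeR adjusted p = 0.00431), and by 1.70 without embryo 27 (edgeR adjusted p = 0.00993). Ptgs2 is also made by stromal cells of the kidney, and its source was not measured.

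Pappa2, a protease and the most abundant of the 3 macula densa genes, was at 85.3, 65.8 and 41.9 CPM in wild type and 168, 197 and 108 CPM in double homozygous kidneys. The groups did not overlap. Pappa2 rose by 1.30 (SE 0.29, edgeR adjusted p = 0.0278), and without embryo 27 the change was 1.10 (edgeR adjusted p = 0.0781). With 1 library left out it was past the threshold in 2 of 6 fits, at 1.06 to 1.55. Over the 8 alternatives it was past it in 5, with adjusted p up to 0.102. In Hoxa-het Hoxc-null kidneys it was at 126, 95.2 and 102 CPM, all above wild type, with a log2 fold change of 0.75 (SE 0.24, edgeR adjusted p = 0.144). The macula densa list's remaining gene, Nos1, did not pass the threshold (edgeR adjusted p = 0.126). Of 7 thin limb genes 0 were past the threshold by edgeR, with 3 below an unadjusted p of 0.05 (5131 of 15839 genes). Estimates were above 0 for 4 and below 0 for 3 of the 7, with a median of 0.05. Groups did not overlap for 1 gene that was higher and 2 that were lower, beside 38.1% of all genes in either direction. Aqp1, the water channel and most abundant of the list, was at 0.41 (SE 0.22, edgeR adjusted p = 0.235), and at 0.20 without embryo 27. Its wild type mean of 235 CPM was most of the list's summed mean of 301 CPM. The cells that made Aqp1 were not measured, so it is not read as a level of the thin limb.

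**Figure D4:**
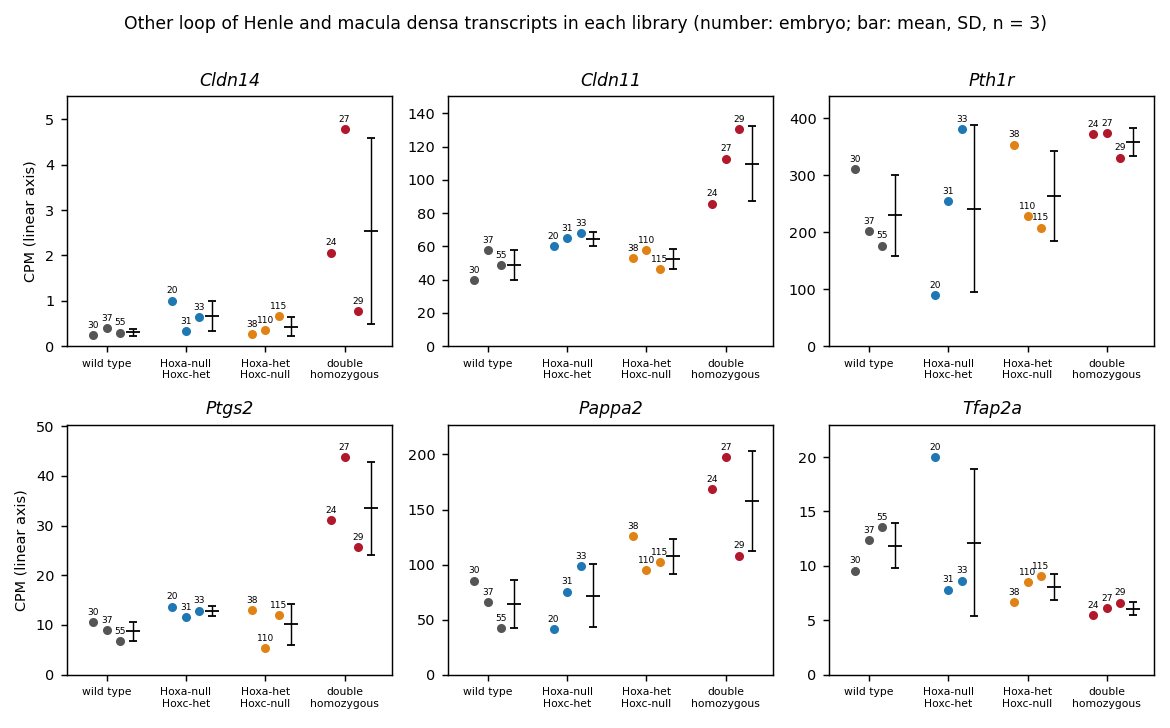
Level in each library of 6 genes of the loop and macula densa lists, in CPM on linear axes from 0, with embryo numbers and with bars for the mean and SD of 3 embryos. Cldn14, Cldn11, Ptgs2 and Pappa2 are higher and Tfap2a lower in the 3 double homozygous embryos than in the 3 wild type embryos.

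Other cell types of the kidney moved in the same libraries. Of all genes tested in double homozygous against wild type kidneys, 13.7% were past the threshold in either direction. Stromal genes rose in 5 of 5 there, with a median log2 fold change of 1.56. Their summed level was 2702, 2773 and 2598 CPM in wild type, 3586, 3878 and 2906 CPM in Hoxa-null Hoxc-het, 3446, 4343 and 4701 CPM in Hoxa-het Hoxc-null and 7573, 9228 and 8356 CPM in double homozygous kidneys. The most abundant of them was Col3a1, at a mean of 1546 CPM in wild type and 4549 CPM in double homozygous kidneys. Of 5 cap mesenchyme genes, which mark nephron progenitors, 3 fell (Cited1, Gdnf and Meox1), with a median of -1.37. Their sum was 185, 241 and 266 CPM in wild type and 74.5, 46.2 and 147 CPM in double homozygous kidneys, so embryo 27 was lowest, and embryo 20 was highest of all at 386 CPM. Six2, their most abundant gene, was at 85.3 CPM in wild type and 33.2 CPM in double homozygous kidneys on average.

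Of 5 podocyte genes 3 rose, with a median of 0.45 (0.27 with Xist as a covariate) and sums of 1111, 1175 and 1147 CPM in wild type and 1570, 1715 and 1358 CPM in double homozygous kidneys. Embryo 20 was again the lowest of the 12, at 675 CPM. Podxl was the most abundant, at 582 CPM in wild type and 822 CPM in double homozygous kidneys on average. Wt1 went the other way, at 177 CPM in wild type and 143 CPM in double homozygous kidneys on average. It was lowest of the 12 in embryo 27, at 109 CPM, and highest in embryo 20, at 204 CPM. Proximal tubule genes gave 0 of 8 past the threshold by edgeR and 0 with an unadjusted p below 0.05. Their median was 0.54, with 7 of 8 estimates above 0, beside 0.38 over the 9 loop members. A median above 0 was thus not particular to the loop. The proximal tubule sum varied widely within each genotype, at 2864, 1371 and 1063 CPM in wild type, 448, 2438 and 3304 CPM in Hoxa-null Hoxc-het, 3061, 1910.2 and 1486 CPM in Hoxa-het Hoxc-null and 2737, 3165 and 2164 CPM in double homozygous kidneys. Lrp2 was the most abundant of them, from 179 CPM in embryo 20 to 1126 CPM in embryo 27.

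In the remaining lists, distal convoluted and connecting tubule genes gave 0 of 7 past the threshold by edgeR and 0 with an unadjusted p below 0.05, with Calb1 as the most abundant. Their median was -0.04, and that of the collecting duct genes was -0.14. Of 7 collecting duct genes, 1 fell (Gata3, -0.65, SE 0.11, edgeR adjusted p = 0.0113), beside 13.7% of all genes past the threshold. Below an unadjusted p of 0.05 there were 3 of the 7 (5131 of 15839 genes). Krt8, the most abundant, was at 237, 250 and 251 CPM in wild type and 268, 329 and 307 CPM in double homozygous kidneys, higher without overlap. Erythroid genes, of which Hbb-bs was the most abundant, gave 0 of 5 past the threshold by edgeR and 3 with an unadjusted p below 0.05 (5131 of 15839 genes), and their sum reached 5839 CPM in Hoxa-het Hoxc-null embryo AC115, against 538 to 1364 CPM in wild type. Genes of these lists named beside the most abundant were chosen after their values were seen, and no gene of the kidney cell type lists was at 0 in any library. Embryo 20 thus had the least of the loop, proximal tubule and podocyte sums and the most of the cap mesenchyme sum, and embryo 27 had the most of the loop and podocyte sums and the least of the cap mesenchyme sum. The part that these other cell types have in the levels of the loop transcripts was not tested.

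**Figure D5:**
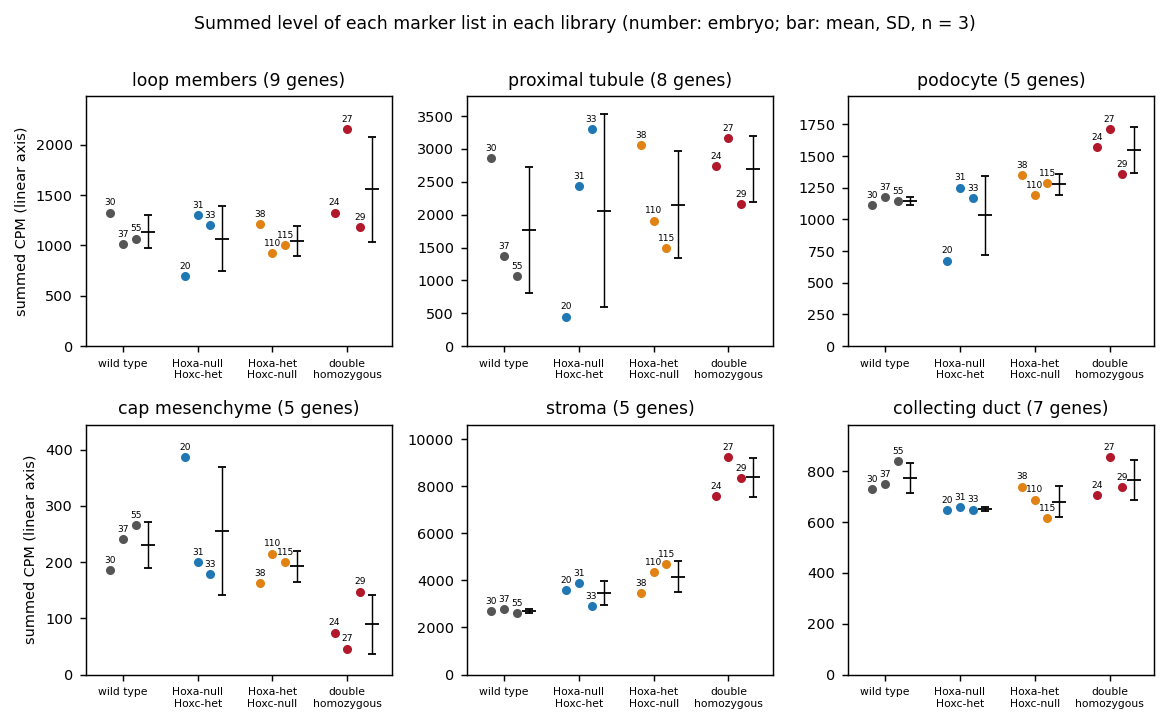
Summed level of the 9 loop members and of 5 other marker lists in each library, in CPM on linear axes from 0, with embryo numbers and bars for the mean and SD of 3 embryos. Embryo 27 is highest for the loop members at 2156 CPM and lowest for cap mesenchyme at 46.2 CPM, and embryo 20 is lowest for the loop members at 696 CPM and highest for cap mesenchyme at 386 CPM.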

How the data were processed

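RNA was measured in whole kidneys of 12 embryos in 4 genotypes. The members and gene lists were chosen with earlier results of these data known. The deposited expected counts were made by the authors with Strand NGS from paired-end reads of 75 bases aligned to mm10, with reads of more than 1 position removed. The deposited log2 values were normalized by the authors by a method not stated and centred on the median of each gene. Counts were rounded. For 92 symbols with more than 1 entry, the entry with the most reads was used. Genes kept by filterByExpr (minimum count 10, minimum total 15) were tested with edgeR 4.0.16 (R 4.3.3), using TMM factors, the quasi-likelihood F test on the 6 libraries compared and Benjamini-Hochberg adjustment over all genes, with a threshold of 0.05, in place of the Audic-Claverie test. SE was the size of the log2 fold change over the square root of F. Log2 CPM had a prior count of 0.5. Exon lengths came from GENCODE release M21. Alternatives were RLE factors, library size alone, all genes with at least 1 count, DESeq2 1.42.0, limma 3.58.1 on the log2 values, fits of 9 or 12 libraries, Xist as a covariate, and each library left out. The edgeR procedure was tested on simulated counts with the same spread for every gene and no outlying library. These settings differ from the data. Genes named were the members, list genes past the threshold (up to 6 a list), the most abundant of each list (not given for every list), the targeted Hox genes, Xist, and the 8 genes most like the members. Figures were drawn with matplotlib 3.10.9.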

Additional observations from a re-analysis of the deposited data

How the results depend on the processing

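Cldn16 and Cldn19 kept estimates above 0 in double homozygous against wild type kidneys under every alternative run, at 0.63 to 0.71 and 0.30 to 0.39, and both remained past the threshold with RLE factors, library size alone, no filter and DESeq2. Of 72 log2 fold changes of members under these alternatives in that comparison, 62 kept direction and side of the threshold, 7 were no longer past it, 1 came past it and 2 turned. The counts of members and genes past the threshold there were 3 and 3380 by DESeq2, 0 and 1215 by limma, 1 and 1190 in the fit of all 12 libraries, 0 and 996 with Xist as a covariate, and 0 and 690 in the fit of 9 libraries. In Hoxa-null Hoxc-het against wild type kidneys, genes past the threshold were 22 by DESeq2, 1 by limma and 2 in the fit of all 12 libraries. In Hoxa-het Hoxc-null against wild type kidneys they were 1318 by DESeq2, 158 by limma, 149 in the fit of all 12 libraries and 134 with Xist as a covariate. The fit of 9 libraries was not run there, since the groups come from different runs. In double homozygous against Hoxa-null Hoxc-het kidneys, members and genes past the threshold were 1 and 554 by DESeq2, 1 and 540 in the fit of all 12 libraries, 1 and 640 with Xist as a covariate, and 0 and 181 in the fit of 9 libraries. There 1 gene was past it by limma and 1 with no filter.

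Directions that turned in double homozygous against wild type kidneys were those of Umod by limma (-0.0068) and Egf with Xist as a covariate (-0.36). In Hoxa-null Hoxc-het against wild type kidneys Cldn10 turned, to -0.047 with library size alone, -0.035 by limma and -0.11 with Xist as a covariate. In Hoxa-het Hoxc-null against wild type kidneys Slc12a1 turned, to 0.0071 with library size alone and to 0.0075 by limma.

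With each library left out in turn, 0 to 2 members and 535 to 3386 genes were past the threshold in double homozygous against wild type kidneys, where the log2 fold changes that turned ranged from -0.47 to 0.38 for Umod, -0.0077 to 0.27 for Cldn10, -0.11 to 0.36 for Egf and -0.034 to 0.62 for Ptger3. In Hoxa-null Hoxc-het against wild type kidneys 0 to 8 genes were past it, with ranges of -0.28 to 0.31 for Slc12a1, -0.17 to 0.16 for Kcnj1, -0.27 to 0.23 for Cldn10, -0.12 to 0.14 for Cldn19 and -0.67 to 0.053 for Egf. In Hoxa-het Hoxc-null against wild type kidneys 60 to 549 genes were past it, with -0.18 to 0.19 for Slc12a1 and -0.20 to 0.015 for Kcnj1. In double homozygous against Hoxa-null Hoxc-het kidneys 0 to 687 genes were past it, with -0.16 to 0.70 for Umod and -0.049 to 0.44 for Cldn10. Leaving out a library leaves fewer libraries to estimate the spread. The cause of the other differences was not tested. Egf had the fewest reads of the members, 41 to 315 a library, and groups of 3 embryos limit the precision for all members. Sex and, for the Hoxa-het Hoxc-null group, sequencing run were not balanced between groups.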
